A study of Mus musculus with 7 samples.

Results

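Group 2 innate lymphoid cells (ILC2s) of the mouse both make neuropeptides and carry receptors for signals released by nerves, and 9 genes of this kind were read out here. Calca and Penk encode peptide precursors. Calcrl, Ramp1, Ramp3, Nmur1, Vipr1, Vipr2 and Chrna9 encode receptors or receptor subunits for calcitonin gene-related peptide (CGRP), adrenomedullin, neuromedin U, vasoactive intestinal peptide (VIP) and acetylcholine. The genes were chosen by name, and every array probe whose accession maps to them was taken, which gave 15 probes of 39429 and 9 genes of 20144 with a symbol. Of these, 13 probes of 8 genes were bright enough to be tested, among 30293 tested probes in all. A probe was tested where the ILC2 signal lay well above background on at least 3 arrays.

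As background, a neuropeptide is cut from a longer precursor by proteases of the secretory pathway and acts on G protein-coupled receptors of neighbouring cells. Calca yields calcitonin or CGRP, depending on splicing. The receptor encoded by Calcrl reaches the cell surface only together with a receptor activity-modifying protein (RAMP), which also sets its preference: with RAMP1 it binds CGRP, and with RAMP2 or RAMP3 it binds adrenomedullin. In mouse ILC2s, neuromedin U acting on Nmur1 is known to raise type 2 cytokines, VIP is known to raise IL-5, CGRP is known to modulate the response to alarmins, and Penk, the precursor of the enkephalins, is known to be transcribed.

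The Gfi1 knockout ILC2s came from mice homozygous for an allele in which GFP is inserted into Gfi1, a gene for a transcriptional repressor, so that the allele loses function and reports promoter activity; the wild-type ILC2s came from Gfi1+/+ mice. All mice of both groups received IL-25 daily for 4 days, and on day 5 c-Kit+, CD127+, ICOS+ and Sca-1+ cells without lineage markers were sorted from mesenteric lymph nodes. The cells were cultured for 6 days with IL-2 (50 ng/ml), IL-7 (10 ng/ml) and IL-25 (50 ng/ml). The 3 knockout samples pooled 6 mice each and the 4 wild-type samples 3 mice each, so that a value describes a cultured pool and not a mouse. The allele is inherited through the germline, so cells other than ILC2s lacked Gfi1 as well. Strain and age are not given in the sources used here.

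Each array held ILC2 RNA in the Cy5 channel and a commercial universal mouse reference RNA in the Cy3 channel, with no dye swap. Values below are log2 ratios of sample over reference unless a channel is named, every difference is knockout minus wild type, and the test is limma's with Benjamini-Hochberg adjustment over all tested probes at a threshold of 0.05. The ILC2 channel lay well above background for 67.9% to 81.4% of probes per array, and with 7 arrays the precision of every value is limited by their number. The Gfi1 probe read 4.28 ± 0.02 (SD, n = 3) in knockout and 2.02 ± 0.23 (SD, n = 4) in wild-type ILC2s (difference 2.25, limma adjusted p = 1.46e-05). Its place relative to the GFP insertion is not known here, so it checks no label. Of the 15 ILC2 markers examined, all were tested, 1 was higher (Il17rb) and 5 were lower (Gata3, Il1rl1, Ly6a, Areg, Arg1) in knockout, and their summed signal in the ILC2 channel was 575284 to 756931 in knockout and 843093 to 1171038 in wild type. Of 6 markers of ILC3s or type 17 cells 4 were higher, among them Il17a, Il17f and Il1r1, with sums of 19903 to 29607 in knockout and 936 to 1067 in wild type. None of the 8 neuron or glia markers was called, and their sums were 2473 to 2714 in knockout and 2287 to 2613 in wild type. Of mast cell or basophil markers 2 of 3 tested were lower (Cpa3 and Hdc, with sums of 310 to 383 in knockout and 414 to 584 in wild type). Neither Cpa3 nor Hdc was called with slide added to the fit as a block, or without wild-type array 4 and knockout array 3. Fcer1a and Ms4a2 were above background on no array. Of T cell markers 1 of 8 was higher (Lck), and none of 5 B cell, 5 myeloid and 4 NK cell markers was called. With slide as a block 4 of the ILC2 markers, 2 of the ILC3 or type 17 markers and 0 of the T cell markers were called. The part of these shifts in the results below was not tested. In bulk RNA, fewer cells of a type and less RNA per cell cannot be told apart.

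Among the 13 tested probes, 4 passed the threshold: both Calca probes and the Ramp3 probe were lower in knockout ILC2s, and 1 of the Vipr1 probes was higher. Over all tested probes 7.47% passed, 3.29% higher and 4.18% lower. Calcrl, Ramp1, Nmur1, Vipr2 and Penk had no called probe, and Chrna9 was not detected. The groups did not overlap for 8 of the 13 probes, which were all tested probes of Calca, Ramp3, Nmur1, Vipr1 and Vipr2, against 18.4% of all tested probes.

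**Figure D1:**
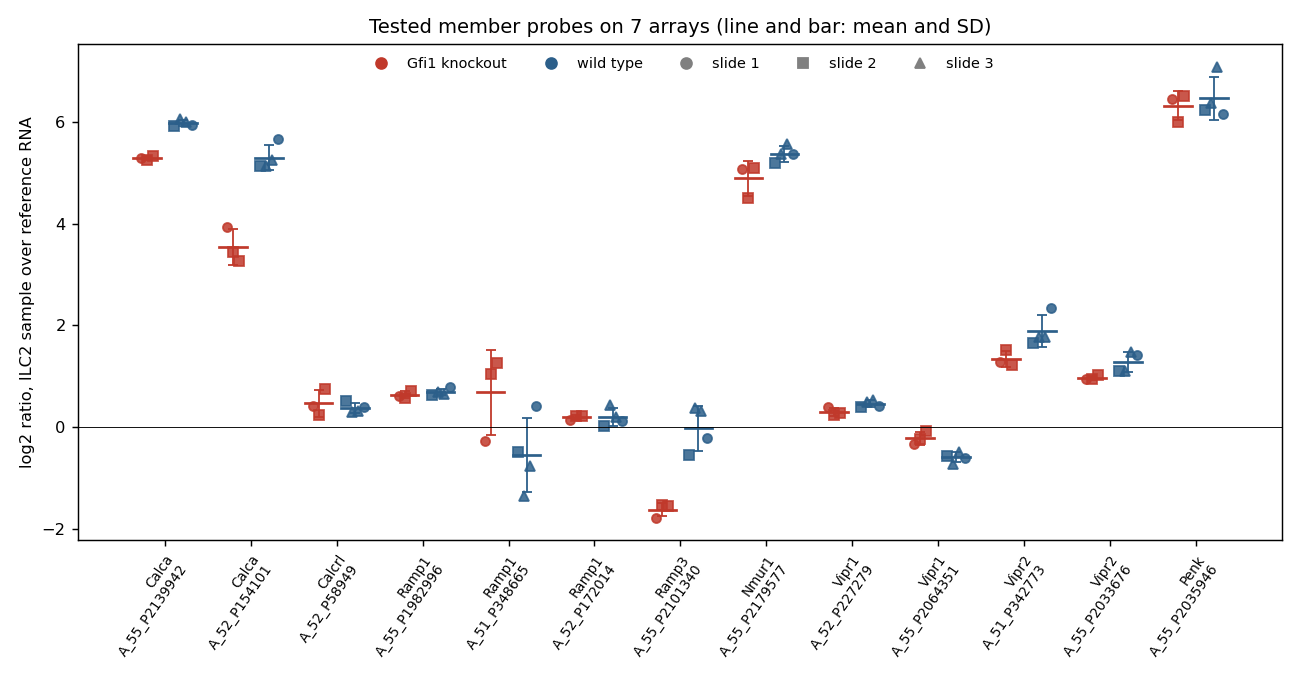
Log2 ratio of ILC2 sample over reference RNA for the 13 tested probes, with 1 point per array, marker shape for the slide, and the mean with its SD (knockout n = 3, wild type n = 4). The Calca and Ramp3 probes show knockout arrays below all wild-type arrays, while Penk, Calcrl and the Ramp1 probes overlap; heights of different probes are not comparable.

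Calca, the gene of calcitonin and CGRP, was lower in knockout ILC2s on both of its probes. The probe A_55_P2139942 (accession NM_007587) read 5.29, 5.26 and 5.33 in knockout and 5.93, 6.05, 5.99 and 5.94 in wild-type ILC2s. All knockout arrays lay below all wild-type arrays, and the arrays of a group differed little among themselves in this ratio. Among wild-type arrays the SD was wider in each channel alone, at 0.21 in the ILC2 channel and 0.20 in the reference channel. The means were 5.30 ± 0.04 (SD, n = 3) in knockout and 5.98 ± 0.05 (SD, n = 4) in wild type, a difference of -0.68 ± 0.07 (SE; 95% interval -0.85 to -0.51; limma adjusted p = 0.000746), or 1.6-fold lower.

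The other probe, A_52_P154101 (accession NM_001033954), read 3.94, 3.44 and 3.26 in knockout and 5.13, 5.14, 5.26 and 5.66 in wild-type ILC2s. Again the groups were apart, by more than 1 log2 unit at their closest. Its difference was -1.75 ± 0.18 (SE; 95% interval -2.15 to -1.35; limma adjusted p = 0.00051), or 3.37-fold lower. The probes carry accessions of different Calca transcripts, and which part of the transcript each one reads is not known here. Slide 1 alone gave -1.72 for A_52_P154101 and slide 2 alone gave -1.78. For A_55_P2139942 the slides gave -0.65 and -0.64.

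Each channel was also fitted alone. In the ILC2 channel 6.58% of tested probes passed, 3.65% lower, and 3 of the 13 probes did, all lower (both Calca probes and Ramp3). In the ILC2 channel A_55_P2139942 read 13.34, 13.41 and 13.41 in knockout and 15.10, 15.39, 15.07 and 15.48 in wild type (log2 signal). That difference was -1.88 ± 0.11 (SE; limma adjusted p = 0.000145), or 3.67-fold lower. The same channel of A_52_P154101 differed by -1.91 ± 0.14 (SE; limma adjusted p = 0.000305), or 3.76-fold lower, so in the ILC2 channel the fall was of like size on both probes.

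The reference channel holds the same commercial RNA on every array, yet at A_55_P2139942 it read 8.05, 8.14 and 8.08 on knockout and 9.16, 9.34, 9.08 and 9.54 on wild-type arrays. It was thus lower wherever the ILC2 channel was lower, by 1.19 on the log2 scale (2.29-fold lower; limma adjusted p = 0.0172). Such a difference was uncommon: in the reference channel 0.0429% of tested probes passed (0.0297% lower), 13 in all, and 0.0363% differed by at least 1 log2 unit. Among 2153 probes with a mean ILC2 signal of at least 14 on the log2 scale, 23 differed by at least 1 in the ILC2 channel, and A_55_P2139942 was the 1 probe whose reference channel also moved by at least 0.5 the same way. Over all tested probes, dimmer ones included, 523 differed by at least 1 in the ILC2 channel, and 17 of them had a reference channel that moved so, among them those of Il17f and Arg1. At A_52_P154101 the reference channel differed by -0.16 (limma adjusted p = 0.824) and was not well above background on any of the 7 arrays. The cause of the reference difference was not tested.

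The scanner software's own signals show the same split. Its processed ILC2 intensity for A_55_P2139942 was 18393, 16225 and 19512 on knockout and 52584, 54378, 48584 and 74835 on wild-type arrays. Its processed reference intensity was 276, 226 and 260 on knockout and 661, 651, 558 and 1042 on wild-type arrays. The quotient therefore moved little: the scanner's log2 ratio differed by -0.18 (limma adjusted p = 0.434), and the groups overlapped. For A_52_P154101 the scanner's log2 ratio differed by -1.79 but missed the threshold (limma adjusted p = 0.164), and the reference intensity in its divisor was between 5.51 and 31.9 on the 7 arrays. The ratio call at A_55_P2139942 was also lost with plain background subtraction (-0.44, limma adjusted p = 0.079), with a variance trend (limma adjusted p = 0.0959) and with a required change of 0.5 (limma adjusted p = 0.817), and that at A_52_P154101 with plain subtraction (-3.18, limma adjusted p = 0.143).

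**Figure D2:**
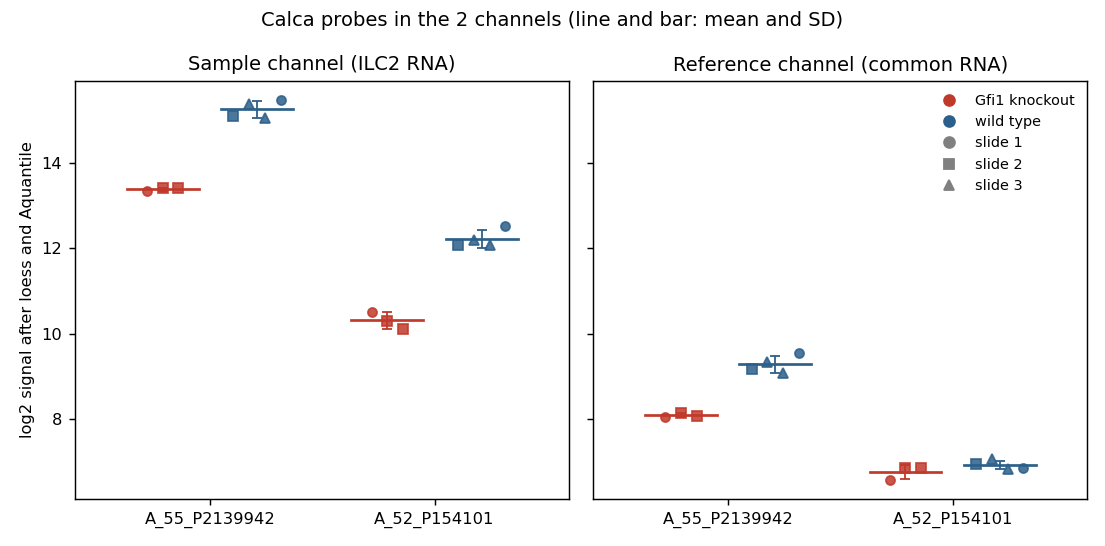
Log2 signal of the Calca probes in the ILC2 channel (left) and the reference channel (right), 1 point per array with the mean and SD (knockout n = 3, wild type n = 4). Knockout points lie below wild-type points for both probes on the left, and for A_55_P2139942 alone on the right.

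The RefSeq window from 250 bases before to 50 bases after the start of Calca is shown because this member fell on both probes. It lies at chr7:114636308-114636607 on the minus strand (GRCm38.p6), and the capitals mark TGACG, the core of the cAMP response element, at position -65 from the start.
Calca: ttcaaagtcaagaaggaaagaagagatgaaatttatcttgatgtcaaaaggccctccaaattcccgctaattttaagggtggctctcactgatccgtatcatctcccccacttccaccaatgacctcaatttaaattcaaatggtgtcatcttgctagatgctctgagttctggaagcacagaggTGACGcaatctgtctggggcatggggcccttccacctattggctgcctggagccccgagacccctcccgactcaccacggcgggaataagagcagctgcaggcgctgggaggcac
TGACG, read on both strands, occurs in 20.8% of 32851 such windows. The full element TGACGTCA, which contains it, occurs in 1.79% and was not found in this window. AAATCA, part of the site that Gfi1 is known to bind, occurs on either strand in 4598 of them and was not found here either. Shorter stretches of that site were not counted, so a window without AAATCA may still hold them. Of the 8 members with a RefSeq window, only Chrna9 held AAATCA, at position -200.

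Penk, the enkephalin precursor, was not called. Its probe read 6.46, 5.99 and 6.52 in knockout and 6.24, 6.38, 7.09 and 6.15 in wild-type ILC2s. The groups overlapped, and the highest value was on wild-type array 3. The difference was -0.14 ± 0.22 (SE; 95% interval -0.64 to 0.36; limma adjusted p = 0.809), so a change of up to 0.64 in size lies within the interval. In the ILC2 channel its log2 signal averaged 14.53 ± 0.38 (SD, n = 3) in knockout and 14.61 ± 0.54 (SD, n = 4) in wild type, with scanner intensities of 27674 to 55649 and 31664 to 64116. Penk transcript was thus plainly detected in both groups.

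The RAMPs moved in different directions. Ramp3, the partner that turns the Calcrl protein into an adrenomedullin receptor, read -1.78, -1.54 and -1.55 in knockout and -0.55, 0.37, 0.32 and -0.22 in wild-type ILC2s. The knockout arrays lay close together and below the 4 wild-type arrays, which were more spread. Its difference was -1.60 ± 0.21 (SE; 95% interval -2.07 to -1.13; limma adjusted p = 0.00189), or 3.04-fold lower. The ILC2 channel alone gave -1.61 (limma adjusted p = 0.01) and the reference channel -0.01 (limma adjusted p = 0.991). Slide 1 alone gave -1.57, slide 2 alone -0.99, and the fit with slide as a block -1.24 (limma adjusted p = 0.0103).

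Ramp2, which forms the other adrenomedullin receptor with Calcrl and was read as a family gene outside the 9, went the opposite way. It read 1.70, 2.00 and 1.99 in knockout and 0.00, 0.08, -0.64 and -0.61 in wild-type ILC2s, with no overlap. The difference was 2.19 ± 0.19 (SE; 95% interval 1.76 to 2.62; limma adjusted p = 0.000212), or 4.56-fold higher, and its adjusted p with slide as a block was 0.0056. Ramp2 and Calcrl are also abundant in endothelial cells. None of the 3 tested endothelial markers was called, their sums were 2126 to 2337 in knockout and 2321 to 2787 in wild type, and Tek was above background on no array. Of 4 stromal markers 1 was higher (Pdgfrb), with sums of 1678 to 2281 in knockout and 1118 to 1331 in wild type, and the part of this in the Ramp2 difference was not tested.

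Ramp1, the CGRP partner, had 3 probes, none called, and they did not tell the same story. A_55_P1982996 read 0.57 to 0.71 in knockout and 0.64 to 0.78 in wild type, a difference of -0.05 (95% interval -0.23 to 0.13; limma adjusted p = 0.804). A_51_P348665 read -0.27, 1.05 and 1.26 in knockout and -0.50, -1.35, -0.77 and 0.41 in wild type. Its arrays of 1 group differed widely, and knockout array 1 and wild-type array 4, which share slide 1, were the overlapping pair. The difference was 1.23 (95% interval 0.25 to 2.21; limma adjusted p = 0.143), 1.65 within slide 2 and -0.68 within slide 1, and without knockout array 1 it was 1.70 and passed (limma adjusted p = 0.0326). A_52_P172014 was near background, above it on 2 knockout and 3 wild-type arrays, with an interval of -0.24 to 0.23 (limma adjusted p = 0.991).

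**Figure D3:**
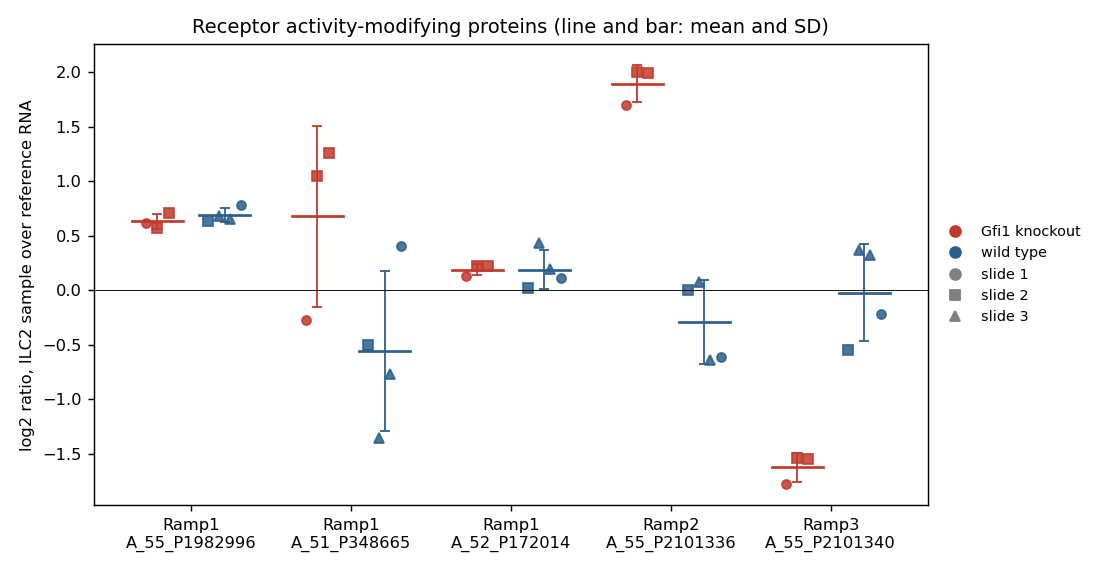
Log2 ratio of the RAMP probes by array, with the mean and SD (knockout n = 3, wild type n = 4) and marker shape for the slide. Ramp2 is 4.56-fold higher and Ramp3 3.04-fold lower in knockout, without overlap, while A_51_P348665 of Ramp1 runs between -0.27 and 1.26 on knockout and between -1.35 and 0.41 on wild-type arrays.

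The Ramp3 window lies at chr11:6658283-6658582 on the plus strand (GRCm38.p6) and is shown because Ramp3 is the called receptor member; it held none of the motifs, so nothing is in capitals. The Ramp1 window, at chr1:91179572-91179871 on the plus strand, is set beside it as the partner gene without a call, and its capitals mark CGTCA, the TGACG core on the other strand, at position 10.
Ramp3: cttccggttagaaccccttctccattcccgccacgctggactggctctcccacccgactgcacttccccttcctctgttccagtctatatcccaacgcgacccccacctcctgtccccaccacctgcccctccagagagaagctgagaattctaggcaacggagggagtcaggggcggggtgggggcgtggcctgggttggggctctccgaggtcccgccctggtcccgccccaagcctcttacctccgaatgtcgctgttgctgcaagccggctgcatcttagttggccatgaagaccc
Ramp1: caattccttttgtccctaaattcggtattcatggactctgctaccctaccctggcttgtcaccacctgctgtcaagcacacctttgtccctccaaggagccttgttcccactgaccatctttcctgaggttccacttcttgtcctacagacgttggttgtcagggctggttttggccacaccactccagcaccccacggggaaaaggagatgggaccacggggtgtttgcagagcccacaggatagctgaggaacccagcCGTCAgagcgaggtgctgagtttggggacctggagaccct
A window without a match says only that these letters are not in it.

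Calcrl, the shared receptor of these partners, was dim. Its probe read 0.41, 0.23 and 0.75 in knockout and 0.51, 0.29, 0.31 and 0.39 in wild-type ILC2s, and was well above background on 3 knockout and 3 wild-type arrays, with scanner intensities of 59.6 to 61.1 and 26.9 to 59.8. The difference of 0.09 (95% interval -0.19 to 0.37; limma adjusted p = 0.779) is thus one between values close to background. Its reference channel was above background on no array. Calcr, the calcitonin receptor, was above background on 0 of 7 arrays, and Calcb, the gene of the other CGRP, on 2.

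Nmur1, the neuromedin U receptor, was lower on all knockout arrays but not called. It read 5.08, 4.50 and 5.09 in knockout and 5.19, 5.37, 5.56 and 5.37 in wild-type ILC2s. The groups did not overlap, though 5.09 and 5.19 lay close, and knockout array 2 was the lowest. The difference was -0.48 ± 0.15 (SE; 95% interval -0.82 to -0.14), with an unadjusted limma p of 0.0108 and an adjusted p of 0.0993. In the ILC2 channel alone it was -0.42 (limma adjusted p = 0.0968) and the groups overlapped. Nmu, the gene of the ligand, differed by 0.07 (95% interval -0.16 to 0.30) and Nmur2, the other neuromedin U receptor, by 0.03 (95% interval -0.16 to 0.22), neither called. Both were dim, though above background on 3 knockout and 4 wild-type arrays. On knockout arrays the log2 signal in the ILC2 channel was 6.75 to 6.87 for Nmu and 6.69 to 6.79 for Nmur2. The groups differed there by -0.1 and -0.09. The processing draws dim ratios towards 0, so these intervals do not show that expression was unchanged.

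The VIP receptors were dim, and the size of their differences depended on the processing. For Vipr2, A_51_P342773 read 1.27, 1.51 and 1.22 in knockout and 1.66, 1.77, 1.78 and 2.35 in wild-type ILC2s. The groups were apart, and wild-type array 4 was the highest. The difference was -0.56 ± 0.16 (SE; 95% interval -0.92 to -0.20; limma adjusted p = 0.0713), 1.47-fold lower and past the threshold neither here nor without any 1 array. The scanner's own ratio gave -0.93 and passed (limma adjusted p = 0.0149), as did normexp with an offset of 10 (-0.69, limma adjusted p = 0.0374), plain subtraction (-1.0, limma adjusted p = 0.0305), no background subtraction (-0.65, limma adjusted p = 0.0344) and keeping marked spots (-0.50, limma adjusted p = 0.0419). Slide 1 alone gave -1.08, slide 2 alone -0.30, and the fit with slide as a block -0.64 (limma adjusted p = 0.209).

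The other tested Vipr2 probe, A_55_P2033676, read 0.94 to 1.02 in knockout and 1.1 to 1.47 in wild type. It differed in the same direction, by -0.31 (95% interval -0.56 to -0.05; limma adjusted p = 0.159), and passed only with no background subtraction (-0.41, limma adjusted p = 0.0483). The scanner's own ratio gave -0.86 (limma adjusted p = 0.15). The reference channel of this probe was well above background on 0 of 7 arrays. The remaining Vipr2 probe, A_51_P473205, was above background on 0 of 7 arrays in either channel and was not tested.

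The Vipr1 probes disagreed. A_55_P2064351 read -0.34, -0.24 and -0.08 in knockout and -0.56, -0.72, -0.49 and -0.60 in wild-type ILC2s, without overlap. The difference was 0.37 ± 0.09 (SE; 95% interval 0.16 to 0.58; limma adjusted p = 0.0428), or 1.29-fold higher. It was above background on 3 knockout and 3 of 4 wild-type arrays, at scanner intensities of 101 to 177 and 36.8 to 83.6. The scanner's own ratio gave 1.01, or 2.01-fold higher, and kept the call (limma adjusted p = 0.0244), as did normexp with an offset of 10 (0.61, limma adjusted p = 0.0207). The call was lost without any single array other than knockout array 1, with adjusted p-values between 0.0568 and 0.123, and with slide as a block (limma adjusted p = 0.323). A_52_P227279 of the same accession read 0.23 to 0.39 in knockout and 0.40 to 0.54 in wild type and differed by -0.16 (95% interval -0.34 to 0.02; limma adjusted p = 0.328), opposite in sign. No direction for Vipr1 can be read from these probes together.

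The ligands of these receptors were not called. Vip itself differed by -0.00 (95% interval -0.19 to 0.18) at a probe above background on 1 knockout and 2 wild-type arrays. Adcyap1, the related PACAP precursor, differed by 0.11 (95% interval -0.11 to 0.33) and its receptor Adcyap1r1 by 0.08 (95% interval -0.19 to 0.35). Adcyap1r1 was dim as well, with a log2 signal of 6.63 to 6.93 in the ILC2 channel.

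**Figure D4:**
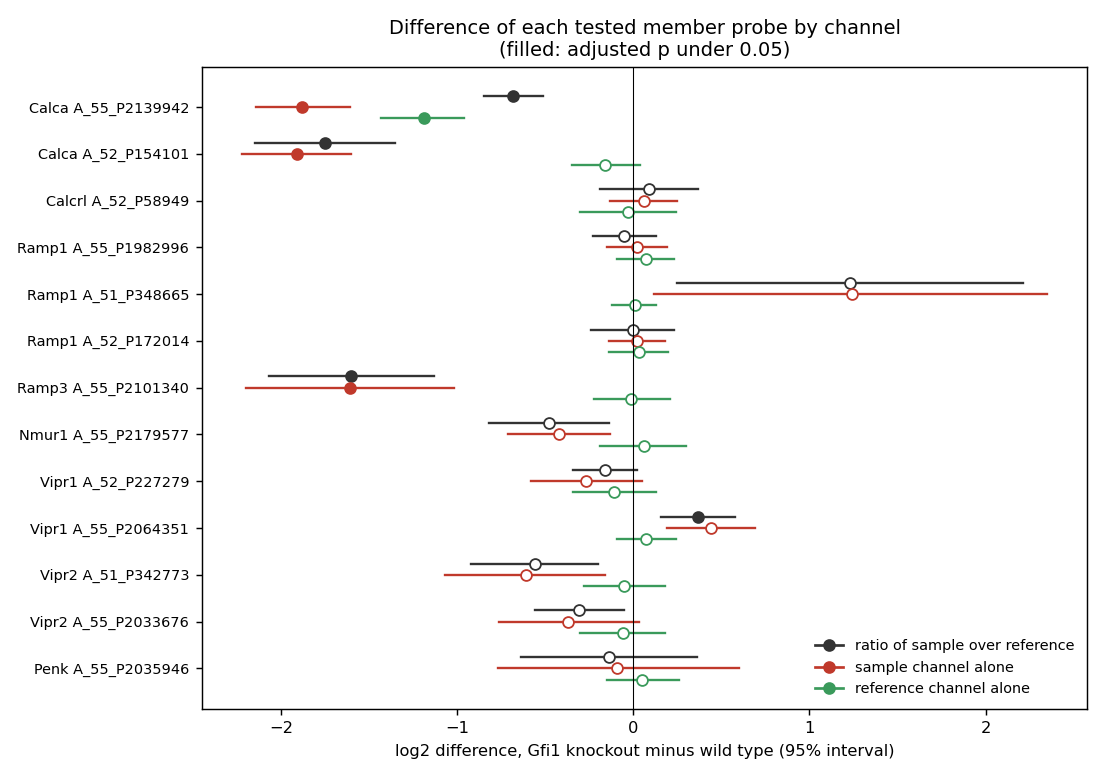
Log2 difference, knockout minus wild type, with its 95% interval for each tested probe, from the ratio, the ILC2 channel and the reference channel; filled points have an adjusted p under 0.05. The reference channel lies near 0 for each probe but A_55_P2139942 of Calca, where it is -1.19.

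Chrna9, an acetylcholine receptor subunit, was above background on 0 of 7 arrays in either channel. Its scanner intensity in the ILC2 channel was at most 15.9 on any array, and no comparison was made. Chrna10, its usual partner subunit, and Chrna7 were likewise above background on 0 arrays. Of the opioid receptors, Oprm1 differed by -0.06 (95% interval -0.30 to 0.19; limma adjusted p = 0.85), and Oprd1 and Oprk1 were each above background on 1 array only.

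The wider pathways were read from 4 lists of other genes, with 1 probe a gene, the one with the highest mean ILC2 signal. Of 150 tested genes 17 were called, 8 higher and 9 lower, or 11.3%. By the same probe rule 8.91% of all 16690 tested genes with a symbol were called, 657 higher and 830 lower; with probes that have no symbol counted too, the share was 7.53% (3.29% higher, 4.24% lower). The median difference of the 150 was -0.03, and that of all tested genes with a symbol was -0.01. With slide as a block 6 of the 150 were called (Ramp2, Ednrb, Cpe, Pcsk1, Itpr2, Arrb1), as were 566 of all 30293 tested probes. Without wild-type array 4, 11 of the 150 and 1501 of all 30293 tested probes were called.

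Among neuropeptides and peptide receptors, 39 of 54 genes were tested, with 2 higher, 2 lower and a median of -0.01. Besides Ramp2, Ednrb, an endothelin receptor, rose by 1.87 ± 0.19 (SE; limma adjusted p = 0.000502), and its other probe differed by 0.87. Grp, the gastrin-releasing peptide precursor, read 3.87, 4.17 and 5.05 in knockout and 5.62, 6.03, 6.47 and 6.08 in wild-type ILC2s. It was lower on each knockout array than on any wild-type array, and fell by 1.69 on the log2 scale (limma adjusted p = 0.00561; with slide as a block 0.095). Adm, which encodes adrenomedullin, the ligand of the Ramp2 and Ramp3 receptors, fell by 0.66 (limma adjusted p = 0.0346; with slide as a block 0.314).

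Enzymes that cut and trim peptide precursors changed in both directions. Of 23 tested among 27 genes, 2 were higher and 2 lower, with a median of -0.04. Pcsk1, the prohormone convertase of the regulated secretory pathway, read 2.53, 2.03 and 1.63 in knockout and 3.64, 3.47, 4.52 and 4.22 in wild-type ILC2s, and fell by 1.90 (3.72-fold; limma adjusted p = 0.00316). Furin, the convertase of the constitutive pathway, read 3.64, 3.24 and 2.02 in knockout and 4.97, 5.07, 5.28 and 4.77 in wild type, and fell by 2.05 (4.15-fold; limma adjusted p = 0.0047; with slide as a block 0.0819). Each was lower on all knockout arrays. Part of the Furin difference lay in the reference channel (0.41), and the ILC2 channel alone gave -1.64. Cpe, the carboxypeptidase that trims the cut ends, read -5.70, -5.16 and -5.63 in knockout and -6.61, -6.57, -6.54 and -6.78 in wild type, and rose by 1.13 (2.19-fold; limma adjusted p = 0.00108), with its 2 other probes at 1.42 and 0.29. Ctsl, a protease that also cleaves the enkephalin precursor, rose by 0.92 (limma adjusted p = 0.0245; with slide as a block 0.214).

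In receptor coupling and the cAMP or calcium response, 48 of 49 genes were tested, with 4 higher, 4 lower and a median of -0.05. Itpr2, a calcium channel of the endoplasmic reticulum, fell by 1.17 (limma adjusted p = 0.000363), and Arrb1, an arrestin that ends receptor signalling, by 1.09 (limma adjusted p = 0.00241). Pde7a, which breaks down cAMP, fell by 0.87 (limma adjusted p = 0.00335; with slide as a block 0.0515), and Gnaq, the G protein subunit through which Nmur1 signals, rose by 0.56 (limma adjusted p = 0.0095; with slide as a block 0.115). The other 4 calls, named after their values were seen, were Rgs1, Gpr65 and Prkar2b, higher by 0.32 to 0.49, and Gnb2, lower at -0.31. Gnb2 differed by -0.14 in the ILC2 channel and by 0.17 in the reference channel. Among transmitter and neurotrophic receptors 40 of 61 genes were tested and 1 was called, Gfra2, the neurturin receptor, at -0.38 (limma adjusted p = 0.0442; with slide as a block 0.414).

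**Figure D5:**
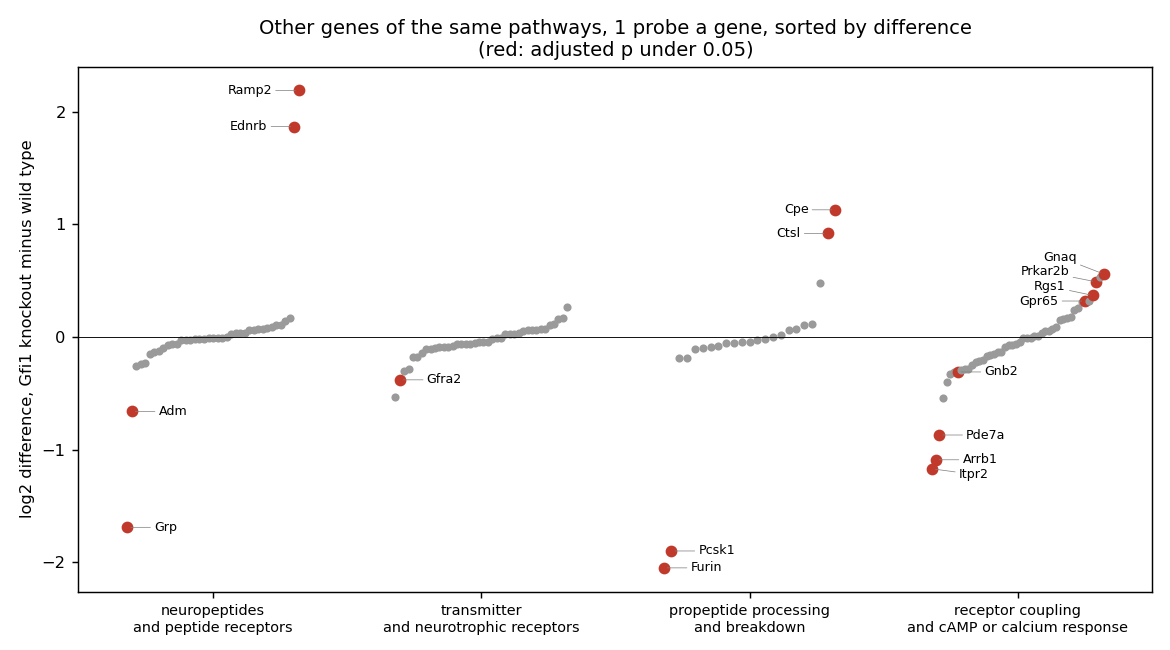
Log2 difference, knockout minus wild type, of 150 other genes of these pathways, sorted within each list, with the 17 called genes in red. Most genes lie near 0, and Ramp2, Ednrb and Cpe stand highest and Furin, Pcsk1 and Grp lowest.

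Genes whose log2 ratios, centred on their mean, followed a called member most closely over the 7 arrays were sought among 21339 named probes. For A_52_P154101 of Calca these were Garem2, Rnf128 and Arg1, at root mean square differences of 0.175, 0.191 and 0.192. For Ramp3 they were Gpr141, Selenbp1 and Ankrd37, at 0.154, 0.155 and 0.159. For A_55_P2064351 of Vipr1 they were Ube2f, Paf1 and Cdan1, at 0.0329, 0.036 and 0.0449. The measure includes the difference between the groups, so a gene with a like difference lies close. Shared regulation was not tested. A member with a small difference has close neighbours by this measure, so its values do not compare between members.

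With wild-type array 4 and knockout array 3 left out together, which an earlier look at these data had put in doubt for background and scanner quality, both Calca probes (-0.71 and -1.49) and Ramp3 (-1.71) were still called and Vipr1 was not (0.30, limma adjusted p = 0.23). Of the 150 pathway genes 10 were then called, and of all 30269 tested probes 1301.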

How the data were processed

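Per the labels, Cy5 carried the ILC2 sample and Cy3 a universal mouse reference RNA on all 7 arrays. The deposited scanner files hold linear spot intensity values from Agilent Feature Extraction 11.0.1.1, per the file headers (10.7.3.1 per the submitters' processing notes). Per the file headers, their log10 ratio was background-subtracted and dye-normalized by that software. In the deposited series table the log2 ratios equal it within 0.0005, with no centring added. Here, median signals were corrected with normexp (offset 50), after removal of 2597 marked spots, normalized by loess in limma 3.58.1 (R 4.3.3) and averaged per probe; figures used matplotlib 3.10.9. Mean signals, which the design named, are not used here, since the files give medians. The offset draws dim ratios towards 0. Each channel alone was read after Aquantile.

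Probes were named through RefSeq accessions (GRCm38.p6): 26581 had 1 gene, 0 several and 12848 none. The array design is on mm9, so probes get no coordinates, and windows come from RefSeq (8 of 9 members matched). Groups were compared with lmFit and eBayes on probes above background on at least 3 arrays with at least 2 values per group, and 103 tested probes lacked a value on some array. The fit code was run on simulated independent normal values with known differences and no slide effect, which does not test the calls made here. Members, lists and the rule for named genes (all members; up to 4 called genes per list with the smallest p; family genes by name; Gfi1; the 3 nearest patterns) were chosen with earlier results of these data known. Some of the genes so chosen are not reported here. Nothing but the pooling says that samples are separate cultures, so p-values measure the spread between these samples. Slide and scan time are the same batch. Slide 1 held knockout array 1 and wild-type array 4, slide 2 knockout arrays 2 and 3 and wild-type array 1, and slide 3 wild-type arrays 2 and 3.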

Additional observations from a re-analysis of the deposited data

Results flagged for a closer look

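For Vipr2, probe A_51_P342773, wild-type array 4 read a log2 ratio of 2.35, while the other wild-type arrays read 1.66, 1.77 and 1.78. Its gap to the nearest of them took 0.833 of the range of the 4 arrays, just over Dixon's critical value for 4 samples. This check was run on 13 probes in the wild-type group, and chance alone marks about 1 group in 20. Without this array the difference between knockout and wild type was -0.41 (limma adjusted p = 0.0704), against -0.56 with it.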

How the results depend on the processing

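The count of called probes over the whole array was 2262. It was 1168 with plain background subtraction, 566 with slide as a fixed block, 253 with a required change of 0.5, 13 in the reference channel alone and 1301 without wild-type array 4 and knockout array 3, a setting added after seeing the data. It was 2343 with no background subtraction, 2007 with a normexp offset of 10, 1561 with the scanner's ratio and 1590 with the series table. With 1 probe a gene it was 1908 of 25347. Leaving out 1 array gave 1501 (without wild-type array 4) to 2314. Calls were 44.0% higher, against 55.5% with median centring and 54.2% with the required change, while the median of all probes stayed within 0.04 of 0 under each setting. Called member probes numbered 4, against 6 with no background subtraction, 5 with a normexp offset of 10, 2 with plain subtraction, with 1 probe a gene or with the required change, 1 in the reference channel, and 3 to 5 without 1 array. The 17 called pathway genes became 9 with plain subtraction, 10 with the scanner's ratio, the series table or the doubted arrays out, 6 with slide as a block, 5 with the required change, 0 in the reference channel (limma), and 11 (without wild-type array 4) to 14 without 1 array.

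No called member reversed. Signs turned at members that were not called. Ramp1 A_51_P348665, at 1.23, was -0.68 within slide 1. Calcrl became -0.28 with plain subtraction, -0.04 with the scanner's ratio and the series table, -0.03 in the reference channel, -0.00 with slide as a block, -0.02 within slide 2 and -0.05 without the doubted arrays, and ran from -0.05 to 0.20 without 1 array. Ramp1 A_52_P172014 became 0.15 with the scanner's ratio and the series table, 0.02 in the sample channel, 0.03 in the reference channel, 0.12 with slide as a block, 0.02 within slide 1, 0.19 within slide 2 and 0.01 with marked spots kept, and ran from -0.06 to 0.08 without 1 array. Ramp1 A_55_P1982996 became 0.02 in the sample and 0.07 in the reference channel. Nmur1, at -0.48, became 0.06 in the reference channel. Penk became 0.05 there, 0.14 with slide as a block, 0.31 within slide 1 and 0.01 within slide 2, and ran from -0.25 to 0.07 without 1 array. Of 278 values of single members under settings other than leaving out 1 array, 226 kept their direction and side of the threshold, or moved by less than 1 SD where there was no test. This tally overstates stability, since Aquantile leaves the ratios unchanged and the series table repeats the scanner's ratio. The causes were not tested.

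No pairing of the samples by replicate number was seen. Same-numbered knockout and wild-type arrays correlated at 0.025, 0.243 and 0.007 in their deviations, and only knockout array 2 correlated best with its own number. With so few pairs this check cannot decide whether samples were paired. With the replicate number as a block 1276 probes and 3 members were called. Signals close to background limit Calcrl, Vipr1 and A_52_P172014 of Ramp1, and the reference signal limits the ratios of A_52_P154101 of Calca and A_55_P2033676 of Vipr2.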
